A study of Mus musculus with 8 samples.

Results

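The immunity-related GTPases (IRG proteins) are interferon-induced proteins that attack the vacuoles in which parasites and bacteria such as Toxoplasma gondii and Chlamydia live inside cells. The genes described here are 9 IRG genes and the giant interferon-inducible GTPase gene Gvin1, 10 genes of the 24015 gene symbols in the count tables, chosen by name as members of these families. All 10 symbols were found. They fall into 3 regulatory IRG genes (Irgm1, Irgm2 and Igtp), 6 effector IRG genes (Iigp1, Tgtp1, Tgtp2, Ifi47, Gm12250 and Gm4951) and Gvin1.

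Effector IRG proteins bind GTP, assemble on the vacuole membrane and break it, which exposes the microbe to the cytosol. Regulatory IRG proteins carry a methionine in place of a lysine in the nucleotide-binding loop, sit on the membranes of the cell itself and keep the effectors in their inactive, GDP-bound state. The family is best known as a response to interferon-gamma, and type I interferons such as IFN-beta also induce it. IFN-beta acts on genes through the interferon-stimulated response element (ISRE), a DNA motif bound by a complex that includes IRF9, and the gamma-activated site (GAS) is the motif linked to interferon-gamma.

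RNA was sequenced from wild-type murine embryonic fibroblasts (MEFs) of a C57bl/6 background, stage E12.5, used at passages 15 to 18. The cells of 2 libraries were untreated, and those of the other 2 had 6 h of murine recombinant IFN-beta at 100 units/mL. The labels number the replicates without saying whether they are separate cultures or embryos, so the tests measure the spread between libraries, which may be technical. The 4 chromatin samples of the series, which include cells with HA-tagged H3.3, were not analysed here.

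The libraries held 18528685 and 24817342 gene counts untreated and 18901845 and 20714161 after IFN-beta. Over the whole table, 574 of 12128 tested genes were called higher (4.73%) and 60 lower (0.495%) at an edgeR adjusted p below 0.05. With total library size as the scaling these counts were 478 and 349, with upper quartile scaling 520 and 128, and under total library size the median log2 fold change over the table was -0.16 in place of -0.02. Fibroblast markers were present in all libraries, with a summed level of 4785 and 5272 CPM (gene counts scaled to a library of fixed size) untreated and 6500 and 6137 CPM treated. Of these 10 markers 1, Twist1, was called higher. The 10 macrophage markers summed to 24.2 and 18.5 CPM untreated and 22.2 and 16.8 CPM treated, ranges that overlap. The 6 endothelial markers summed to 0.935 and 1.06 CPM untreated and 3.14 and 2.01 CPM treated, with Tie1 and Emcn at 0 in every library, Pecam1 at 1, 2, 0 and 1 counts and Cdh5 called higher, and the part of such cells in the results was not tested. The 6 epithelial and 7 lymphoid markers each summed to less than 1 CPM in every library. In bulk RNA a larger share of responding cells and more RNA per cell cannot be told apart.

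The promoters of the members that hold these motifs are printed here because their shared layout can be read letter by letter. The RefSeq table (build GRCm38.p6) gave a promoter of 300 bases, from 250 before to 50 after the annotated start, for 7 of the 10 members, all but Iigp1, Gm4951 and Gvin1. The ISRE core was searched as GAAANNGAAA and the GAS as TTCNNNGAA, on both strands. The ISRE core was found in 6 of the 7 member promoters, against 1131 of all 32851 promoters in the table (3.44%). The GAS was found in 5 of the 7, against 2726 of 32851 (8.30%). The promoters of Irgm2 and Igtp, and those of Tgtp1 and Tgtp2, are alike in sequence. The member matches are thus not independent of each other. In the runs below, printed 5′ to 3′ along the gene's strand with 30 bases on either side, capitals mark the ISRE core and GAS matches.
Irgm1: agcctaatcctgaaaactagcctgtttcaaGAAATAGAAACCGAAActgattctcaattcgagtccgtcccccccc
Irgm2: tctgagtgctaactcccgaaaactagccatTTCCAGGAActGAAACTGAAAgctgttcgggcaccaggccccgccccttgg
Igtp: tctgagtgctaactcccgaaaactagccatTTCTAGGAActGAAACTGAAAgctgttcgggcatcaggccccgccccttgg
Tgtp1: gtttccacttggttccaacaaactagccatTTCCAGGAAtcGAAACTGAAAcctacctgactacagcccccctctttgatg
Tgtp2: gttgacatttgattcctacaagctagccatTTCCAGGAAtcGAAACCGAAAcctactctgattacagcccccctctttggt
Gm12250: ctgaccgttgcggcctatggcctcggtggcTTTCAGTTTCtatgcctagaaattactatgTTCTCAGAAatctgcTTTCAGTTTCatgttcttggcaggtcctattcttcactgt

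These runs lie at chr11:48871405-48871480 (Irgm1, minus strand), chr11:58214872-58214952 (Irgm2, plus), chr11:58199481-58199561 (Igtp, plus), chr11:48992284-48992364 (Tgtp1, minus), chr11:49064243-49064323 (Tgtp2, minus) and chr11:58183722-58183836 (Gm12250, plus) in GRCm38.p6, upstream of and around the annotated starts. In Irgm2, Igtp, Tgtp1 and Tgtp2 the GAS was followed by 2 bases and then by the ISRE core. The match of both together began 75 bases before the annotated start in Irgm2, 45 in Igtp, 88 in Tgtp1 and 81 in Tgtp2. This joined arrangement, which was searched after the sequences had been seen, stood in 5 of the 32851 promoters (0.0152%). The fifth was Gm12185, another IRG gene (synonym Irgb2b1). Of the 5 other IRG genes with a promoter in the table, Gm12185 held both motifs, 9930111J21Rik1 held an ISRE core after its start (bases 27 to 36), and Gm5431, 9930111J21Rik2 and Irgq held neither. The genes with the joined arrangement are related copies, so the 5 matches are not independent of each other. The Irgm1 promoter held 2 ISRE cores that overlap in 4 bases and no GAS match, and Gm12250 held 2 ISRE cores on the minus strand with a GAS between them. The Ifi47 window held neither set of letters.

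**Figure D1:**
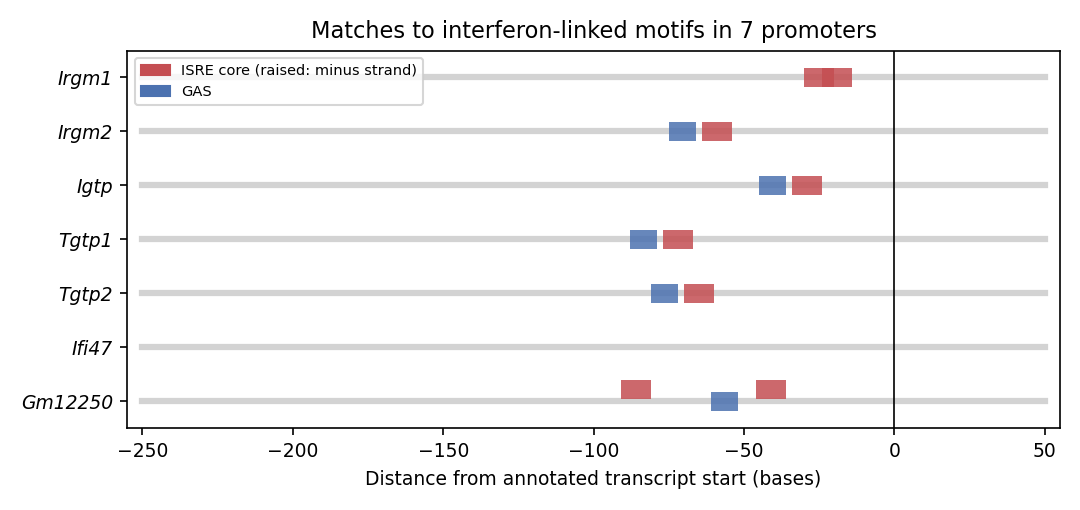
Matches to the ISRE core (red) and GAS (blue) in the 7 member promoters of the RefSeq table, by distance in bases from the annotated transcript start, with minus-strand ISRE matches drawn raised. In 4 promoters the GAS lies just upstream of the ISRE core, Irgm1 has overlapping ISRE cores, and Ifi47 has no match in its window.

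Aligned end to end with free end gaps, the promoters of Irgm2 and Igtp were 92.1% identical over 265 aligned bases, and those of Tgtp1 and Tgtp2 80.5% over 272. The other 19 pairs among the 7 promoters ran from 52.6% to 71.8% over 214 to 269 aligned bases. The Tgtp2 promoter was closer to that of Gm12185 (96.6% over 295 bases) than to that of Tgtp1.

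After 6 h with IFN-beta, 8 of the 10 members were far above their untreated level and the other two, Tgtp1 and Gvin1, had 0 counts in all 4 libraries. The 8 genes passed the filter on low counts and all 8 were called higher, where 4.73% of all tested genes were. Irgm1, Ifi47 and, close to the limit, Igtp would have passed the filter on their untreated counts. The others of the 8 entered the test through the treated libraries and had to differ. The count of members called and their median log2 fold change of 8.30 (median of all tested genes -0.02) are therefore descriptions. With Tgtp2 at its lower bound the median was also 8.30.

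**Figure D2:**
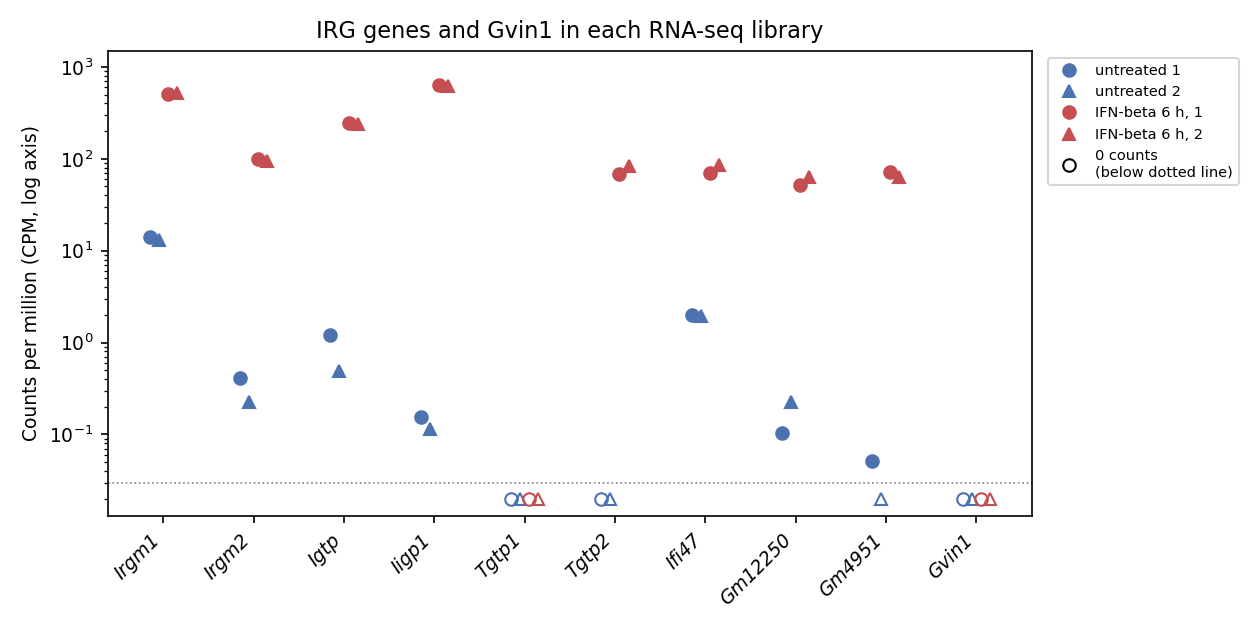
Normalized level of each member in CPM on a log axis, 1 point per library, with open symbols below the dotted line for 0 counts. In all 8 members with counts, both IFN-beta libraries stand above both untreated libraries, and Tgtp1 and Gvin1 have 0 counts throughout. Most of the 8 passed the count filter through their treated counts and had to differ. The share of all tested genes that separate in this way was not counted.

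All 3 regulatory genes rose, and Irgm2 alone among them had untreated counts below the filter. Irgm1, whose protein is found on the Golgi and lysosomes, had 271 and 342 counts untreated and 8979 and 10405 after IFN-beta. On the CPM scale this was 14.1 and 12.96 untreated and 503 and 524 treated, so the groups were far apart and the libraries of a group lay close together. The mean rose from 13.5 ± 0.790 to 514 ± 14.9 CPM (SD, n = 2), a 37.98-fold difference (log2 fold change 5.25 ± 0.15 SE, edgeR adjusted p = 1.0e-08).

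Irgm2, a Golgi-associated regulator, had 8 and 6 counts untreated and 1763 and 1898 treated. Its level was 0.416 and 0.227 CPM untreated and 98.8 and 95.6 CPM treated, with no overlap (log2 fold change 8.27 ± 0.24, edgeR adjusted p = 1.1e-08). Igtp, which encodes the regulator Irgm3 of the endoplasmic reticulum and lipid droplets, had 23 and 13 counts untreated and 4351 and 4725 treated. Its untreated libraries lay apart, at 1.19 and 0.493 CPM, while the treated ones were close at 244 and 238 CPM (log2 fold change 8.23 ± 0.27, edgeR adjusted p = 2.1e-08, and 8.94 without untreated replicate 1). As a ratio of depth-scaled pooled counts, Irgm1 rose 38.3-fold (95% exact interval 35.3 to 41.5), Irgm2 316-fold (188 to 579) and Igtp 305-fold (220 to 436). The intervals, which cover counting error alone, place Irgm2 and Igtp above Irgm1 and leave Irgm2 and Igtp overlapping. Differences in fold between members were not tested.

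Of the 6 effector genes 5 rose. Iigp1 encodes Irga6, the effector studied in most detail, which moves to the parasite vacuole. It had 3 counts in each untreated library against 11306 and 12397 after IFN-beta. Its treated levels of 633 and 624 CPM stood against 0.156 and 0.114 CPM, and the pooled ratio was 4781 (2196 to 13030). The log2 fold change was 12.16 ± 0.23 (edgeR adjusted p = 1.9e-09), rank 5 of the 12128 tested genes.

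Gm4951, an IRG gene that the RefSeq table also lists as Ifgga2, had 1 and 0 counts untreated and 1271 and 1250 treated. The treated levels were 71.2 and 62.96 CPM, and the pooled ratio was 3051 with a wide interval of 547 to 120561, since it rests on 1 untreated count. Its fitted log2 fold change of 11.23 was 13.49 when untreated replicate 1 was left out and 10.16 when replicate 2 was. Gm12250 encodes Irgb10, an effector that also acts on bacterial membranes and inclusions. It had 2 and 6 counts untreated and 931 and 1253 treated, or 0.104 and 0.227 CPM against 52.1 and 63.1 CPM (log2 fold change 8.32 ± 0.29, edgeR adjusted p = 3.4e-08, and 9.03 without untreated replicate 2). Iigp1, Gm4951 and Gm12250 thus had 0 to 6 counts in each untreated library.

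Ifi47, which encodes Irgd, was the one effector whose untreated counts would pass the filter. It had 38 and 51 counts untreated, 1.97 and 1.93 CPM, and 1251 and 1714 counts treated, 70.1 and 86.3 CPM. The rise was 40.0-fold by the group means (log2 fold change 5.32 ± 0.19, edgeR adjusted p = 4.0e-08), and the pooled ratio of 40.3 (32.7 to 50.4) overlapped that of Irgm1. Ifi47 and Irgm1 ranked 90 and 91 by log2 fold change among all tested genes, against 30 to 35 for Gm12250, Irgm2 and Igtp.

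Tgtp1 and Tgtp2 encode near-identical copies of the effector Irgb6 that coats the parasite vacuole early. Tgtp2 had 0 counts in both untreated libraries and 1206 and 1677 after IFN-beta, 67.6 and 84.5 CPM, which was at least 1163-fold higher when the 2 untreated libraries together are set to 3 counts. Tgtp1 had 0 counts in all 4 libraries, which allows at most 0.114 to 0.168 CPM per library. That limit holds for reads assigned to this symbol and not for its transcripts. The counting tool leaves out reads that align to several places, 29.8% to 37.2% of all records here, and the RefSeq table lists Tgtp2 as a synonym of Tgtp1. The split of counts between these copies is therefore uncertain, and the Tgtp2 value itself may miss reads that both copies share.

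Gvin1, the very large GTPase gene, also had 0 counts in every library. Of 7 related giant GTPase symbols, 6 were in the tables. Gm4070, Gm8989 and Gm17757 were at 0 throughout, Gm8979 had 0, 0, 3 and 3 counts (untreated then treated), and Gm4759 0, 0, 2 and 0. Gm1966 had 4 and 0 counts untreated and 16 and 13 treated, and it was not called (log2 fold change 3.03 ± 0.82, edgeR adjusted p = 0.0701). Gm1966 passed the test without a count filter (adjusted p = 0.0027), with limma-voom (0.0471), with a replicate block (0.0024), and also without IFN-beta replicate 2 (0.01996, log2 value 3.24) and without untreated replicate 1 (0.000676, log2 value 7.06). Its adjusted p ran up to 0.152 over the alternatives. These giant genes are close copies of each other, so the same limit on uniquely assigned reads applies.

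Effectors took a larger share of the IRG counts after treatment. The 9 IRG members held 346 and 421 counts untreated, of which 12.7% (95% exact interval 9.39% to 16.7%) and 14.3% (11.1% to 17.96%) came from effector genes. After IFN-beta they held 31058 and 35319 counts, with 51.4% (50.8% to 51.96%) and 51.8% (51.3% to 52.3%) from effectors. The effector to regulatory ratio of summed counts went from 0.156 ± 0.0145 to 1.07 ± 0.0116 (SD, n = 2), without overlap. With 2 libraries against 2, an exact permutation test cannot go below p = 0.333, so none was run. Without the Tgtp1 and Tgtp2 pair the treated ratio was 0.977. Counts are not corrected for transcript length, so the ratio compares libraries and says nothing of the relative amounts of the proteins' transcripts.

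Most of that shift came from a few genes. Irgm1 supplied 78.3% and 81.2% of the untreated IRG counts and 28.9% and 29.5% of the treated ones. Iigp1 went from 0.867% and 0.713% to 36.4% and 35.1%. Ifi47 supplied most untreated effector counts, at 10.98% and 12.1% of IRG counts, and 4.03% and 4.85% after treatment. Leaving Ifi47 out, the effector to regulatory ratio was 0.0199 and 0.0249 untreated and 0.975 and 0.974 treated, a choice made after the values were seen. Igtp rose from 6.65% and 3.09% to 14.01% and 13.4%. The 10 members together made up 0.00187% and 0.00170% of all gene counts untreated and 0.164% and 0.171% treated.

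**Figure D3:**
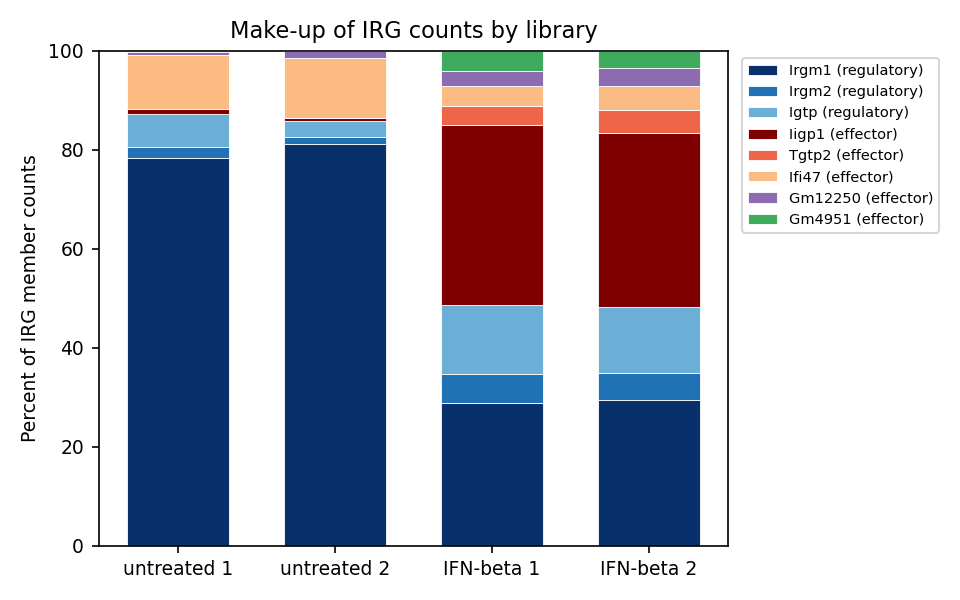
Percent of the counts of the IRG members that each gene supplied, 1 bar per library, regulatory genes in blue and effector genes in other colours (Tgtp1 had 0 counts). Irgm1 fills most of both untreated bars, and Iigp1 is at 36.4% and 35.1% in the IFN-beta bars.

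Of 8 other IRG genes, 6 were tested and 5 were called higher (4.73% of all tested genes were). Of these 6, 4 passed the filter through their treated counts and had to differ, so the count and the median log2 fold change of 6.37 are descriptions. Gm12185, whose promoter was noted above, went from 0.324 ± 0.238 to 63.7 ± 1.03 CPM (log2 fold change 7.49 ± 0.28). Gm4841 (8.95 ± 0.34) and F830016B08Rik (7.40 ± 0.33) also rose, with edgeR adjusted p-values of 5.8e-08 and 1.6e-07, as did Gm5431 (5.33) and 9930111J21Rik1 (3.77). The untreated counts of 9930111J21Rik1 were 15 and 95, and its value was 3.16 when untreated replicate 1 was left out and 5.33 when replicate 2 was. Without untreated replicate 2, Gm12185 was at 8.62 and Gm5431 at 6.00. Irgq, a divergent relative, had 205 and 389 counts untreated and 213 and 208 treated and was not called (-0.19 ± 0.20, edgeR adjusted p = 0.676). Irgc1, known from testis, had 0 counts in every library, and 9930111J21Rik2 had 1, 1, 3 and 13 counts. Without a count filter 9930111J21Rik2 was tested too, and 5 of the 7 tested genes were called higher, without it. With a library left out, whether 9930111J21Rik2 was tested and called depended on the library.

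The guanylate-binding proteins, larger GTPases that work with IRG effectors at the vacuole, rose too. Of 12 listed, 9 were tested and all 9 were called higher (4.73% of all tested genes were). Of these 9, 5 passed the filter through their treated counts and had to differ, so the count and the median log2 fold change of 8.19 are descriptions. Gbp7 was at 8.19 ± 0.21, Gbp3 at 9.09 ± 0.26 and Gbp2 at 8.54 ± 0.27 (edgeR adjusted p from 4.8e-09 to 2.0e-08). Without untreated replicate 1, Gbp3 was at 9.74. A difference between this family and the IRG genes was not tested.

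**Figure D4:**
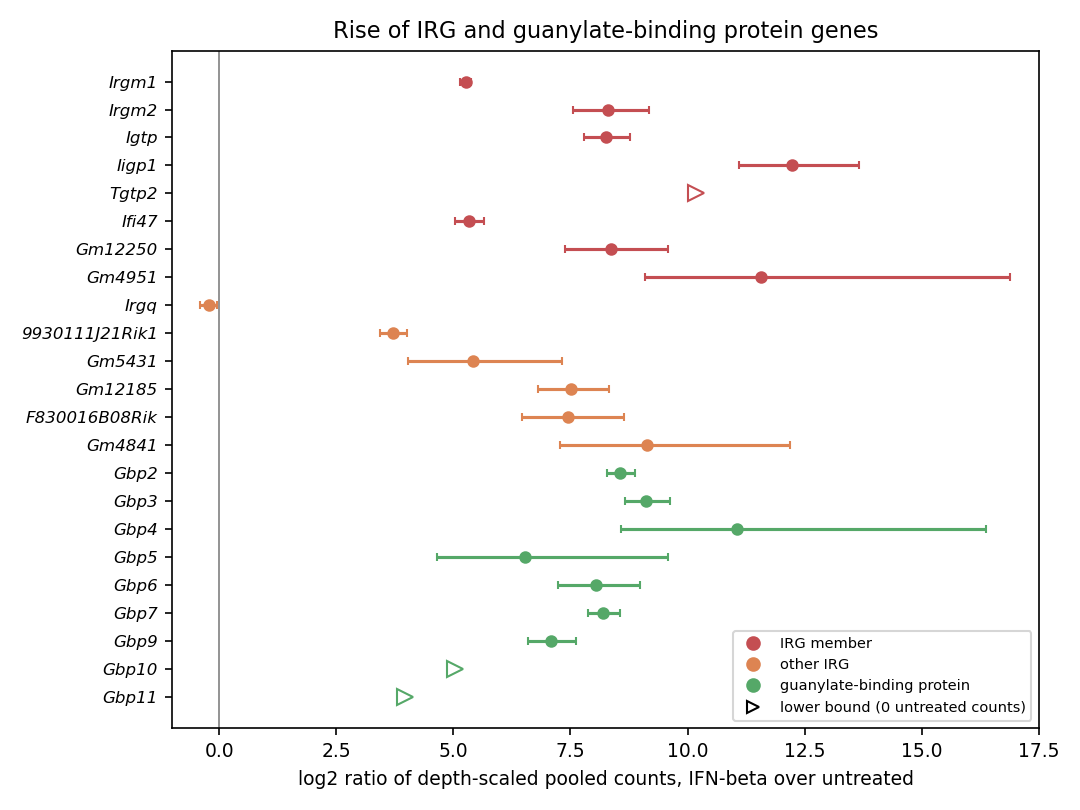
log2 ratio of depth-scaled pooled counts, IFN-beta over untreated, with 95% exact intervals (counting error alone) for tested IRG members, other IRG genes and guanylate-binding protein genes. Arrowheads are lower bounds for genes with 0 untreated counts, and Irgq is the gene near 0.

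Of 13 genes for the receptors and factors that lead to these promoters, 12 were tested and 6 were called higher (4.73% of all tested genes were). The 12 had a median log2 fold change of 0.50, against -0.02 over the whole table. Stat2 was at 5.04 ± 0.20 and Irf9 at 3.77 ± 0.17 (edgeR adjusted p = 7.6e-08 and 1.8e-07). Irf1, a factor needed for much of the IRG response to interferon-gamma, rose by 2.98, Nlrc5 by 2.89, Irf2 by 1.32 and Jak2 by 0.62. The Jak2 call was lost with total library size and without either IFN-beta replicate. The receptor genes Ifngr1 (-0.27) and Ifngr2 (-0.43) were not called, though Ifngr2 was called lower without untreated replicate 1. Interferon genes themselves were at or near 0. Ifng, Ifna1, Ifna2, Ifna4 and Ifne had 0 counts in all libraries, Ifnk had 1 count in a single treated library, and Ifnb1 had 1, 1, 1 and 0 counts.

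The proteins that attach ATG8 proteins to membranes direct IRG and guanylate-binding proteins to vacuoles. None of the 12 tested genes for these proteins and for ATG8 proteins themselves, such as Gabarap, was called by edgeR, DESeq2 or limma-voom. Of the 12, 1 was at an unadjusted edgeR p below 0.05, and the median log2 fold change was -0.09. Atg5 was at -0.32 ± 0.13 (edgeR adjusted p = 0.227), Gabarap at -0.27 ± 0.17 and Atg10 at -0.41 ± 0.27. Without untreated replicate 2 these 3 genes were called lower, as were 1727 of all 12336 genes tested in that setting (14%), and without untreated replicate 1 Gabarap was at 0.03. Among 9 other genes linked to vacuole marking or autophagy, 2 were called higher (4.73% of all tested genes were). Trim21, a ubiquitin ligase, was at 5.53 ± 0.18 (edgeR adjusted p = 2.1e-08) and the autophagy receptor gene Optn at 1.04 ± 0.19 (edgeR adjusted p = 0.0098, but 0.112 without IFN-beta replicate 1). Traf6 was at 0.16 ± 0.16 and was not called.

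By gene order in GRCm38.p6, the members on chromosome 11 lie in 2 groups with other genes between the groups. Irgm1, Tgtp1, Tgtp2 and Ifi47 form one, with other IRG genes and Psme2b among them, and Gm12250, Igtp and Irgm2 stand side by side in the other. Iigp1 and Gm4951 lie near each other on chromosome 18 with Gm4841 and F830016B08Rik between them. Of the 9 tested neighbours that are not IRG genes, 2 were called higher and 7 were not. The 5 tested IRG neighbours were all called higher, where 4.73% of all tested genes were. Olfr56 and the IRG neighbours other than 9930111J21Rik1 passed the filter through their treated counts and had to differ, so these counts are descriptions. Trim41, before Irgm1, was at 0.05 ± 0.17, and Mrpl22 and Gemin5, before Gm12250, at 0.08 ± 0.17 and 0.39 ± 0.16. Zfp692 and Zfp672, after Irgm2, were at 0.16 ± 0.21 and 0.02 ± 0.18, and Smim3 and Dctn4, after Iigp1, at 0.11 ± 0.14 and 0.02 ± 0.14. The values of Trim41, Mrpl22, Zfp672, Smim3 and Dctn4 change sign with total library size scaling. Gemin5 kept a positive sign in all 12 alternatives and ran up to 0.63, without untreated replicate 2.

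Neighbours that are not IRG genes but were called higher were Olfr56 and Psme2b. Olfr56, an olfactory receptor symbol after Ifi47, had 5 and 2 counts untreated and 140 and 161 treated (5.64 ± 0.40, edgeR adjusted p = 7.5e-06). Its value was 6.63 when untreated replicate 1 was left out and 4.91 when replicate 2 was. Olfr1396, which lies between Ifi47 and Olfr56, had 0, 1, 2 and 2 counts. Psme2b, a copy of a proteasome activator gene that stands next to 9930111J21Rik1, had 61 and 53 counts untreated and 159 and 259 treated (2.11 ± 0.28, edgeR adjusted p = 0.0011). The strand setting of the counting is not given in the sources used here. Reads from the 2 strands of an overlap therefore cannot be separated, and reads shared with other copies would be left out. Whether Olfr56 or Psme2b overlaps another gene was not examined, and the cause of their rise was not tested.

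**Figure D5:**
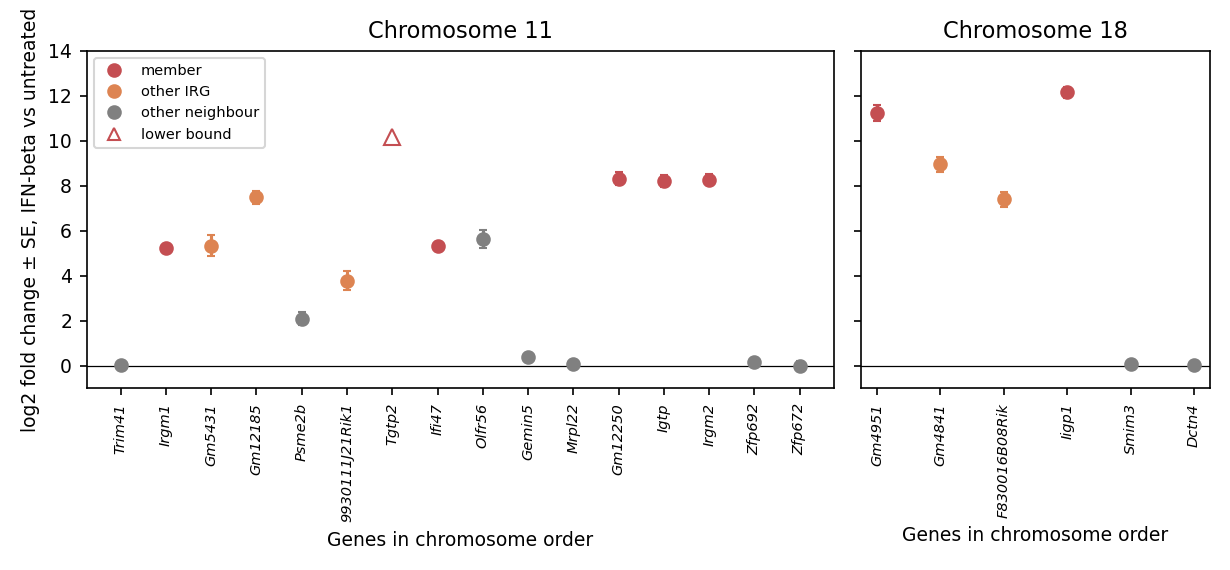
log2 fold change with its standard error for tested members, other IRG genes and the nearest neighbours with rows in the tables, in chromosome order and not to scale. The triangle is the lower bound of Tgtp2, and grey points other than Olfr56 and Psme2b lie between 0.02 and 0.39.

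By distance between the log2 CPM values of the 4 libraries and the median of the 8 tested members, the 5 nearest other genes were Isg15 (distance 0.998), Gm12185 (1.19), Gbp6 (1.31), Phf11d (1.35) and AI607873 (1.57). This likeness rests on 4 libraries and describes level and rise together. The log2 fold change of Isg15 (8.87) was 9.95 when untreated replicate 1 was left out and 8.11 when replicate 2 was. Isg15, a ubiquitin-like modifier, went from 0.265 ± 0.213 to 116 ± 2.29 CPM, and Phf11d from 0.135 ± 0.0298 to 51.3 ± 1.85 CPM.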

How the data were processed

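Each of the 4 tables that the authors deposited holds raw read counts of 1 library by gene symbol. The labels' protocols give Trizol extraction and a TruSeq RNA kit. TopHat2 2.0.13, HTSeq 0.7.2 and build mm9 stand in the submitters' processing notes. The annotation is not given in the sources used here. The 5 summary lines, which name no gene, were used neither for library sizes nor for tests, and genes hold 38.7% to 42.7% of all records.

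The test was edgeR's quasi-likelihood test on counts (edgeR 4.0.16, R 4.3.3, TMM, default filter with minimum count 10 and minimum total 15) over the whole table with Benjamini-Hochberg adjustment, and genes were called at 0.05. SE is the log2 fold change divided by the square root of F. CPM use TMM-scaled library sizes. Exact 95% intervals and the floor of 3 counts cover counting error only. The procedure was tested on simulated data. Genes named are the members, up to 3 tested genes per comparator list by p, the 5 nearest genes and 2 neighbours on each side. Members of lists outside that rule were named after their values were seen. A listed gene is not reported here. The members and lists were chosen with earlier results of these data known. Alternatives were other scalings, no filter or a stricter one, DESeq2 1.42.0, limma-voom (limma 3.58.1), a replicate block and each library left out.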

Additional observations from a re-analysis of the deposited data

How the results depend on the processing

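All 8 tested members kept their direction and stayed called in each of the 12 alternatives, 96 results in all, with adjusted p-values up to 1.8e-06. The member count was 8 in every alternative. Fitted log2 values ran from 5.11 to 5.33 for Irgm1, 11.9 to 12.4 for Iigp1 and 7.65 to 8.94 for Igtp. With 0 or 1 untreated counts they moved more, from 11.7 to 13.9 for Tgtp2 and from 10.2 to 13.5 for Gm4951. Fits without a library take the spread of the lone sample from the other group. All alternatives reuse the same libraries, and most of the 8 members passed the filter through their treated counts. These agreements are therefore descriptions. With all libraries kept, 3.94% (total library size) to 5.68% (replicate block) of all tested genes were called higher.

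The count of all genes called lower (60) was 349 with total library size, 128 with upper quartile scaling, 381 without a count filter, 103 with DESeq2, 151 with the replicate block, and 24 to 1727 with a library left out. The count called higher (574) was 863 without a count filter, 689 with the replicate block and 470 to 1885 with a library left out, and 1885 and 1727 both came without untreated replicate 2. The cause was not tested. The replicate numbers were not treated as pairs, since deviations of same-numbered libraries correlated at -0.033 across genes, and the block changed no member's call. The members' share of all records, not of gene counts, was 0.000718% untreated and 0.0681% treated, and the treated effector to regulatory ratio was 0.977 without the Tgtp1 and Tgtp2 pair. With a library left out the shares ran from 0.00170% to 0.00187% and from 0.164% to 0.171%, and the ratios from 0.146 to 0.166 and from 1.06 to 1.07.

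Of 371 results for other named genes, 346 kept direction and call. Signs turned with total library size (Trim41 -0.0961, Mrpl22 -0.0614, Zfp672 -0.126, Smim3 -0.0364, Dctn4 -0.123) and upper quartile scaling (Trim41 -0.0228, Zfp672 -0.0536, Dctn4 -0.0539). With a library left out, ranges across 0 were -0.498 to 0.0330 for Gabarap, -0.0540 to 0.155 for Trim41, -0.127 to 0.339 for Mrpl22, -0.130 to 0.161 for Zfp672 and -0.119 to 0.195 for Dctn4. Untreated counts of 0 to 8 limit the folds of Irgm2, Iigp1, Tgtp2, Gm12250 and Gm4951.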
